A study of Mus musculus with 8 samples.

Results

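Collagen chain genes were examined in bulk RNA sequencing of 8 mouse liver samples. Of 31910 genes in the deposited count table, 44 have a symbol of the form Col, number, a, number, and the 27 that reached 10 or more counts in at least 3 libraries are described here as the collagen genes. They comprise 9 fibril-forming (fibrillar) chains, 4 type IV chains of the basement membrane and 14 others. The remaining 17 symbols are accounted for at the end. Both groups held 4 samples. One had received the adeno-associated vector AAV2/9-Ctrl and the other AAV2/9-SA, a vector named in a series about a bacterial protein in steatohepatitis, the inflamed and often scarred form of fatty liver. Per the series design, 4.8e10 vector genomes per mouse were given by tail vein after 7 weeks of feeding. That text covers normal chow, a high-fat diet for 24 weeks, and a cholesterol-containing Western-type diet plus fructose and sucrose in the drinking water for 16 weeks, and the labels do not say which diet applies to these 8 samples. Strain, age, the promoter of the vectors and the cells that took them up are not given in the sources used here. Libraries are called Ctrl 1 to 4 and SA 1 to 4 after their titles.

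Collagens are secreted proteins whose chains wind into a triple helix of glycine-rich repeats. Fibrillar collagens, above all types I and III, build the cross-striated fibrils that accumulate as scar in a fibrotic liver, where activated stellate cells are the main producers. Type IV collagen forms the sheet-like network of basement membranes around bile ducts and vessels. Type VI makes beaded filaments, fibril-associated collagens decorate fibrils, and the multiplexins, types XV and XVIII, are proteoglycans of the basement membrane zone.

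Total counts lay between 14114145 and 15922829 in 7 libraries and at 28184001 in SA 4. Mitochondrially encoded transcripts made up 9.23% of counts in Ctrl 4 and 3.55% to 4.87% elsewhere. The summed level of 6 hepatocyte markers (among them Apoa1, Ass1 and Serpina1a, with log2 fold changes of -0.27, -0.15 and 0.04) was 66159 to 90951 CPM in Ctrl and 58143 to 81893 CPM in SA. All levels are CPM, the usual depth-scaled counts, here with library sizes adjusted by the TMM factors of edgeR. They do not correct for transcript length, so levels of different genes are compared only where CPM per kilobase is given. In bulk tissue, fewer cells of a type and less RNA per cell cannot be told apart.

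The transcripts of the fibrillar class took up less of the SA libraries on average, but the Ctrl libraries were far apart. The class summed to 597.3, 172.8, 271.1 and 347.3 CPM in Ctrl 1 to 4 and to 210.1, 179.5, 170.4 and 185.7 CPM in SA 1 to 4. The means were 347.1 ± 181.4 CPM for Ctrl and 186.4 ± 17 CPM for SA (SD, n = 4), and their log2 ratio was -0.90. Ctrl 2 lay inside the SA range and the other Ctrl libraries above it. Without Ctrl 1 the log2 ratio was -0.50. The 4 type IV genes summed to 142.6, 77.2, 141.4 and 58.9 CPM in Ctrl 1 to 4 and to 98.3, 66.2, 61.1 and 48.3 CPM in SA 1 to 4, and here Ctrl 2 and Ctrl 4 both lay inside the SA range. The log2 ratio of the type IV means was -0.62. Fibrillar and type IV transcripts therefore did not follow the same order over the Ctrl libraries: Ctrl 4 was second highest for the fibrillar class and lowest for type IV.

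The 14 other genes summed to 597.8 ± 108.9 CPM over the Ctrl and 647.3 ± 78.2 CPM over the SA libraries (SD, n = 4). The log2 ratio was 0.11, and the groups overlapped. This sum was mostly Col18a1. With Col15a1 and Col18a1 counted among the basement membrane genes, that class had a log2 ratio of 0.22 in place of -0.62, and the other class had -0.65. Of all collagen CPM, the fibrillar class made up 43.4%, 18.9%, 25.4% and 41.3% in Ctrl 1 to 4, while it took 19.6% to 22.5% of SA libraries. No p-value is given for a class sum, because the genes were chosen with earlier results of these data known.

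**Figure D1:**
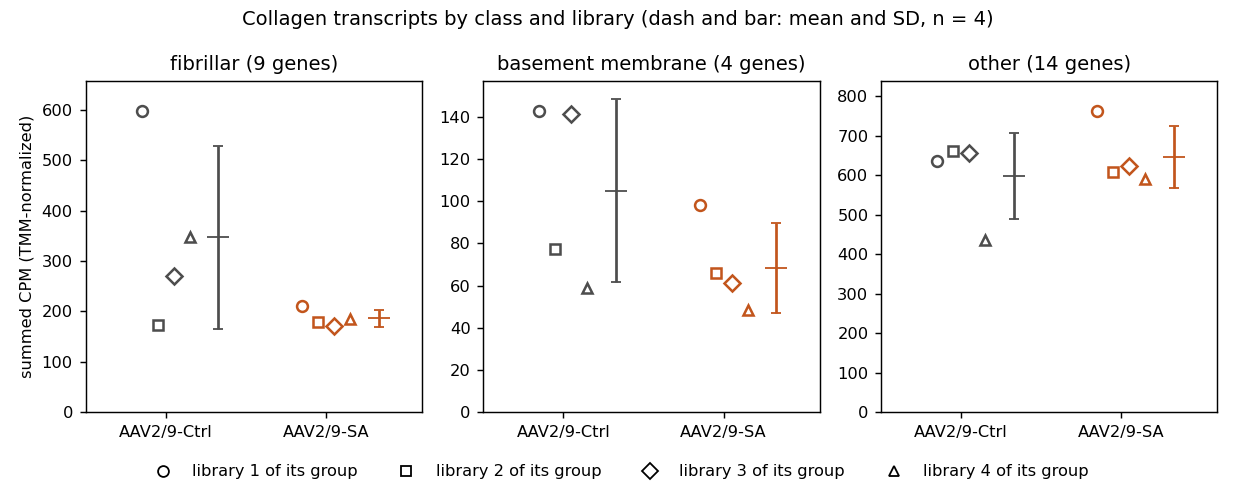
Summed CPM of the collagen genes by class (vertical axis) in each library of the AAV2/9-Ctrl and AAV2/9-SA groups; symbols are libraries, the dash and bar the mean and SD of 4. The fibrillar sum spans 172.8 to 597.3 CPM in Ctrl and 170.4 to 210.1 CPM in SA, and all 3 classes overlap between the groups.

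Of the 27 genes, 24 had enough counts for the edgeR quasi-likelihood test over all 12358 tested genes. None passed an adjusted p of 0.05, where the background was 0.00809% of genes lower and 0.00809% higher in SA. At an unadjusted p under 0.05, edgeR gave 12 collagen genes with a lower and 3 with a higher level in SA, that is 50% and 12.5% of those tested, beside 3.29% and 2.91% of all genes. With DESeq2, 1 gene was lower (Col5a2) and 2 were higher (Col15a1 and Col27a1) at an adjusted p under 0.05, where 0.267% and 0.158% of all genes were called. The 4 SA libraries lay below all 4 Ctrl libraries for 2 genes (Col5a2 and Col14a1) and above them for 2 (Col15a1 and Col27a1), or 8.33% each, beside 1.46% and 1.66% of all genes. The log2 fold change was negative for 16 (66.7%, beside 51.3% of all genes) and positive for 8 of the 24 (beside 48.7% of all genes), with a median of -0.63 against -0.0073 over all tested genes. Many collagen genes are made by the same cells, so the 24 are not independent observations.

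The DESeq2 calls depended on single libraries. Leaving out 1 library at a time, DESeq2 called 0 to 10 collagen genes. Without Ctrl 2 there were 10 calls, beside 1.02% of all genes in the same fit: Col1a1, Col1a2, Col3a1, Col5a1, Col5a2, Col6a1, Col6a2, Col6a3 and Col14a1 lower and Col27a1 higher. Without Ctrl 1, the call was Col3a1 alone (0.184% of all genes), without SA 3 there was none (0.181%), and without SA 2 or SA 4 it was Col15a1 alone (0.21% and 0.185%). There were 4 calls without Ctrl 3 (0.664% of all genes), 2 without Ctrl 4 (0.795%) and 3 without SA 1 (0.812%). With edgeR, no collagen gene passed after any omission, and the smallest adjusted p was 0.0551, for Col1a1 without Ctrl 2.

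**Figure D2:**
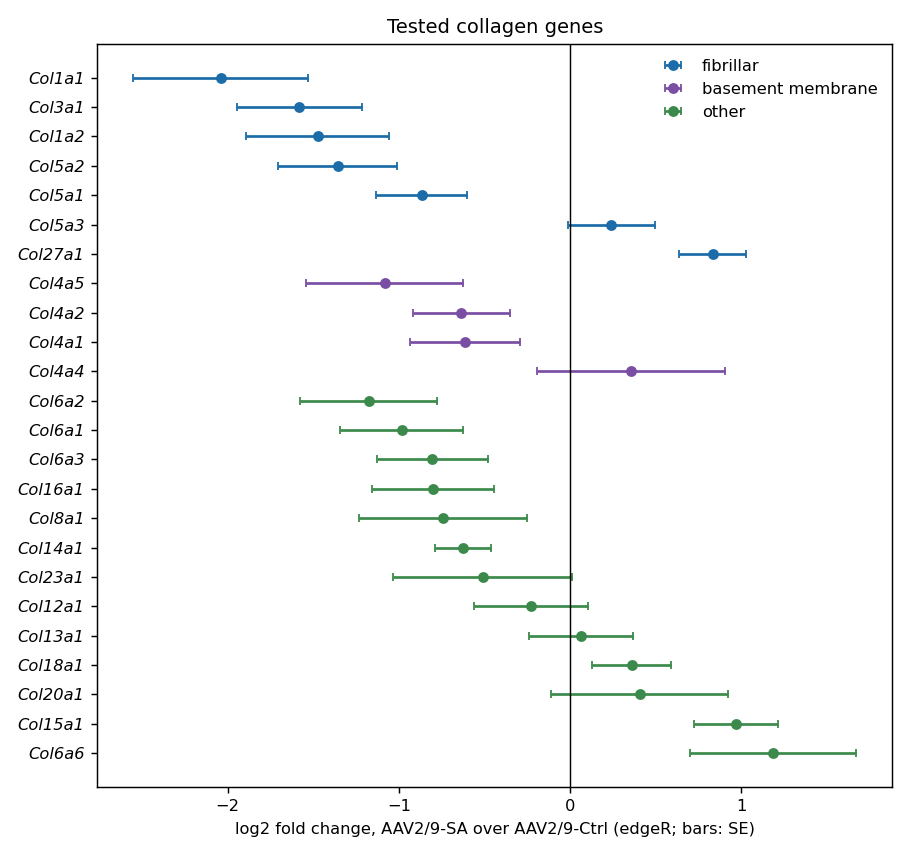
Log2 fold change of AAV2/9-SA over AAV2/9-Ctrl (horizontal axis, edgeR, bars are SE) for the 24 tested collagen genes, coloured by class. Estimates run from -2.04 for Col1a1 to 1.19 for Col6a6, and none passed the adjusted threshold.

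Type I collagen is assembled from the products of Col1a1 and Col1a2, and type III from Col3a1 alone. Col1a1 was at 139.8, 14.8, 42.0 and 76.0 CPM in Ctrl 1 to 4 and at 24.3, 10.9, 18.0 and 13.1 CPM in SA 1 to 4. Ctrl 1, Ctrl 3 and Ctrl 4 were above every SA library, while Ctrl 2 was within their range. On the log2 scale SA minus Ctrl was -2.04 ± 0.51 (SE), with an edgeR adjusted p of 0.367, and -1.42 without Ctrl 1.

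Col1a2, the partner chain, was at 114.7, 18.1, 36.7 and 72.8 CPM in Ctrl and at 26.6, 18.8, 22.9 and 18.9 CPM in SA, in library order. Its order over the Ctrl libraries was that of Col1a1, and Ctrl 2 lay just below the lowest SA library. Its fold change was -1.47 ± 0.42 in log2 units (SE), edgeR's adjusted p was 0.475, and without Ctrl 1 the value was -0.96. Per kilobase of transcript, the ratio of Col1a1 to Col1a2 within a library was 0.737 to 1.1 in Ctrl and 0.524 to 0.825 in SA, with means of 0.953 ± 0.157 and 0.671 ± 0.127 (SD, n = 4). The 2 ranges overlapped through Ctrl 2 and SA 1, and this difference was not tested.

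Col3a1 was the most abundant fibrillar chain per kilobase, at 15.1 CPM per kb over all libraries, next to 7.15 for Col1a1 and 7.70 for Col1a2. It was at 232.8, 50.7, 83.6 and 135.7 CPM in Ctrl 1 to 4 and at 55.3, 37.2, 38.9 and 36.5 CPM in SA 1 to 4. SA 1 stood apart from the other SA libraries and alone reached above a Ctrl library. The difference was -1.58 ± 0.36 in log2 units (SE), with adjusted p of 0.342 from edgeR and 0.115 from DESeq2, and without Ctrl 1 it was -1.1. The smallest edgeR p of the collagen genes was that of Col3a1, 0.000859 before adjustment.

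Type V collagen is a minor component of the same fibrils and is known to limit their diameter. Col5a2 was at 23.8, 6.2, 9.47 and 10.1 CPM in Ctrl 1 to 4 and at 5.30, 5.19, 4.50 and 4.37 CPM in SA 1 to 4. Every SA library was below every Ctrl library, by a narrow margin at Ctrl 2. In log2 units the fold change was -1.36 ± 0.35 (SE), with adjusted p of 0.367 from edgeR and 0.0236 from DESeq2. Without Ctrl 1 it was -0.83 and DESeq2 no longer called it (adjusted p = 0.295), nor did it without SA 2, SA 3 or SA 4 (adjusted p = 0.0939, 0.13 and 0.12).

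Col5a1 was at 24.1, 10.00, 20.1 and 14.3 CPM in Ctrl and at 12.3, 9.20, 8.92 and 7.23 CPM in SA, in library order, a difference of -0.87 ± 0.26 in log2 units (SE) with an edgeR adjusted p of 0.513. Ctrl 2 again fell among the SA libraries. The remaining type V chain gene, Col5a3, did not share this pattern: its mean was 33.5 ± 11.8 CPM for Ctrl and 39.6 ± 7.12 CPM for SA (SD, n = 4), and the log2 fold change was 0.24. Per kilobase, Col5a3 exceeded Col5a1 by a factor of 1.54 to 5.25 in Ctrl and 4.57 to 7.56 in SA, ranges that overlapped through Ctrl 2.

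Col27a1 encodes a fibril-forming chain known mainly from cartilage, and its difference had the opposite sign to those of Col1a1, Col1a2, Col3a1, Col5a1 and Col5a2. It was at 23.3, 33.9, 35.4 and 21.8 CPM in Ctrl 1 to 4 and at 42.4, 50.5, 46.4 and 64.4 CPM in SA 1 to 4. All 4 SA libraries were above all 4 Ctrl libraries. Its fold change was 0.83 ± 0.19 in log2 units (SE), with adjusted p of 0.342 from edgeR and 0.0365 from DESeq2. The lowest Ctrl values were in Ctrl 4 and Ctrl 1, the libraries with the most Col1a1, and without Ctrl 4 DESeq2 no longer called the gene (adjusted p = 0.0547, log2 fold change 0.72). Omitting Ctrl 1, SA 2, SA 3 or SA 4 had the same outcome (DESeq2, adjusted p = 0.255, 0.173, 0.0935 and 0.284).

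**Figure D3:**
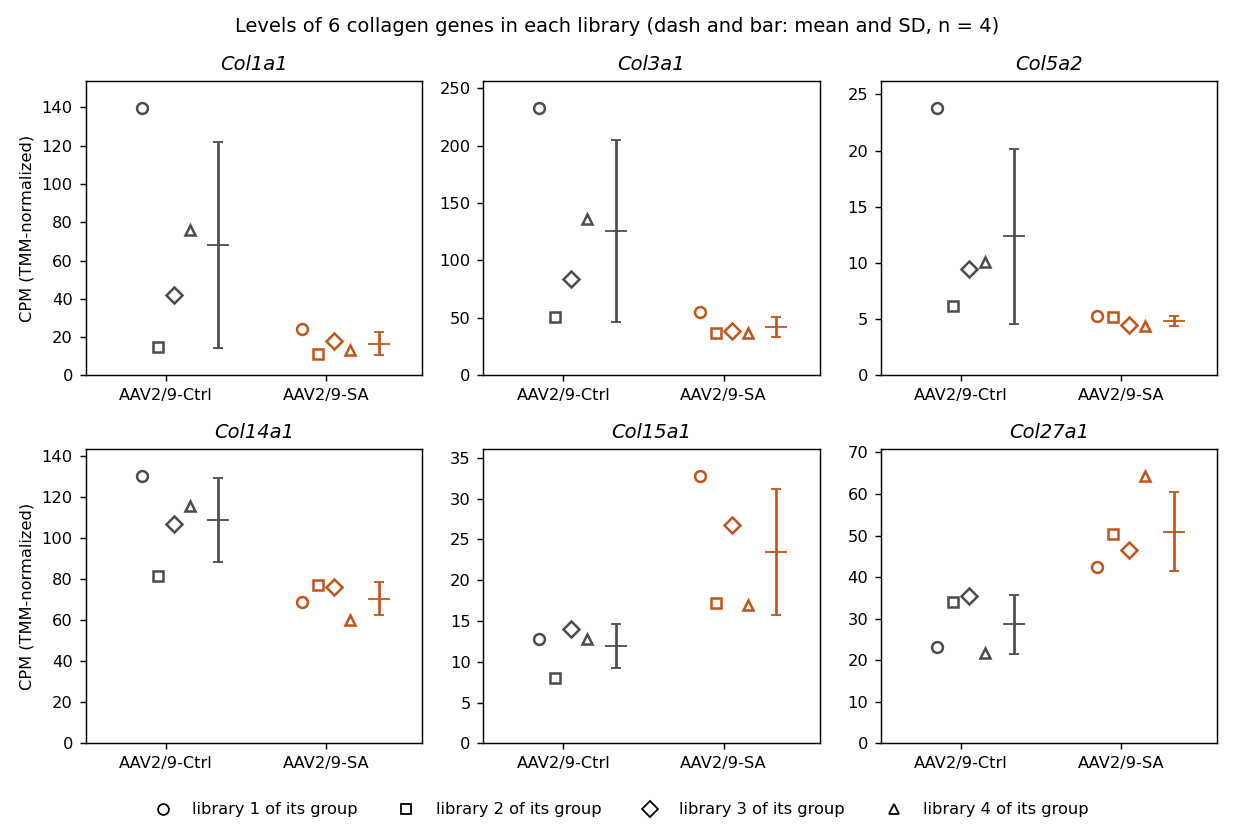
CPM (vertical axis) of 6 collagen genes in each library; symbols are libraries, the dash and bar the mean and SD of 4 per group. Col1a1 and Col3a1 overlap between the groups through Ctrl 2, whereas Col5a2 and Col14a1 are lower and Col15a1 and Col27a1 higher in every SA library than in every Ctrl library.

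Stretches before the transcription start of fibrillar genes from both sides of this split are shown because Col1a2, Col3a1 and Col5a1 had negative and Col27a1 positive fold changes. They come from the RefSeq promoter table of build GRCm38.p6, matched by symbol, which holds 23 of the 27 genes and not Col1a1, Col5a2, Col12a1 or Col14a1. The build behind the deposited counts is not settled by the labels, so the coordinates belong to that table. Each stretch lies on the plus strand, at chr6:4505373-4505492 for Col1a2, chr1:45311388-45311537 for Col3a1, chr2:27886275-27886424 for Col5a1 and chr4:63215262-63215411 for Col27a1. All lie within the 250 bases before the RefSeq start, and GENCODE M21 annotates no exon in them. Capitals mark a TATA motif (TATAAA) or a GC box (GGGCGG), and the CCAAT motif was searched too, each on both strands.
Col1a2: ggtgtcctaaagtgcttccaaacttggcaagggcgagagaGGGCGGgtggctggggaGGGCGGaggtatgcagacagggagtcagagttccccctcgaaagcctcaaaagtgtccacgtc
Col3a1: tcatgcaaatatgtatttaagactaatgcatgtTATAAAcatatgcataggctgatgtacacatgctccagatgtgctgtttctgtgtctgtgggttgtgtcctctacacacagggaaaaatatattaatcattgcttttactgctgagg
Col5a1: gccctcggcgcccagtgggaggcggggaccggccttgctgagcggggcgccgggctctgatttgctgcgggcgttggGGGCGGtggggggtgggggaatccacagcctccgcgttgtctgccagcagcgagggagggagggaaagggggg
Col27a1: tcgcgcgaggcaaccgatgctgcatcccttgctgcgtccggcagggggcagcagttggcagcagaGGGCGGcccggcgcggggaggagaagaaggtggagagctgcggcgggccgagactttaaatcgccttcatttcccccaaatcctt

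The Col1a2 stretch holds 2 GC boxes, those of Col5a1 and Col27a1 hold 1 each, and that of Col3a1 holds 1 TATA motif and no GC box. Within the full 250 bases, Col1a2 also has 1 CCAAT motif and Col5a1 has 2 GC boxes. A GC box thus occurred in genes with fold changes of either sign. Over the 250 bases before the start, a GC box was found in 14 of the 23 collagen genes with a sequence, or 60.9%, next to 32.7% of 32851 promoters in the table. The TATA motif was found in 3 (13.0%, next to 12.4%) and CCAAT in 8 (34.8%, next to 33.8%). The units differ: collagen shares count genes, of which Col6a2 and Col18a1 have more than 1 listed promoter. The background shares count promoters, whether or not their genes were detected here. A match is a description of letters and not a bound site.

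Type IV collagen is made mainly from the chains of Col4a1 and Col4a2, neighbouring genes read in opposite directions from a shared start region. Col4a1 was at 77.2, 43.2, 79.0 and 24.9 CPM in Ctrl 1 to 4 and at 52.1, 36.7, 31.6 and 26.6 CPM in SA 1 to 4. Ctrl 4 was the lowest of all 8 libraries, and Ctrl 2 lay within the SA range. In log2 units SA minus Ctrl was -0.61 ± 0.32 (SE), with an edgeR adjusted p of 0.886, and it was -0.4 without Ctrl 3. It was -0.86 without Ctrl 4, the library with the high mitochondrial share, whose part in the result was not tested.

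Col4a2 was at 61.6, 32.7, 59.9 and 29.0 CPM in Ctrl and at 44.4, 27.3, 26.0 and 20.5 CPM in SA, in library order, which gave -0.64 ± 0.28 in log2 units (SE; adjusted p = 0.797 with edgeR). The pair kept close to each other within a library: Col4a1 over Col4a2 per kilobase was 1.14 to 1.31 in the SA libraries and 1.22 to 1.29 in Ctrl 1 to 3, and 0.837 in Ctrl 4. Their annotated exons overlap by 22 bases on opposite strands, and the library kit is not described as keeping strand.

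The minor type IV chains were much scarcer. Col4a5, a chain of kidney and other specialised basement membranes, was at 3, 1.03, 1.99 and 3.30 CPM in Ctrl 1 to 4 and at 1.14, 0.688, 2.01 and 0.651 CPM in SA 1 to 4, giving -1.08 ± 0.46 in log2 units (SE; adjusted p = 0.761 with edgeR). Col4a4 was at 0.819, 0.276, 0.483 and 1.72 CPM in Ctrl and at 0.671, 1.5, 1.52 and 0.579 CPM in SA, with as few as 4 counts in a library. Its estimate was 0.36 ± 0.55 in log2 units (SE; adjusted p = 0.996 with edgeR), 0.075 without Ctrl 2 and 0.98 without Ctrl 4. The groups overlapped for both genes.

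Type VI collagen is a heterotrimer of the chains of Col6a1, Col6a2 and Col6a3 that sits around cells and between fibrils. Col6a1 was at 39.0, 7.86, 16.2 and 24.5 CPM in Ctrl 1 to 4 and at 10.6, 10.1, 12.8 and 10.8 CPM in SA 1 to 4. As with type I, the order in Ctrl was Ctrl 1, Ctrl 4, Ctrl 3 and Ctrl 2, the last below every SA library. The fold change was -0.98 ± 0.36 in log2 units (SE; adjusted p = 0.634 with edgeR), and -0.55 without Ctrl 1.

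Col6a2 was at 28.7, 5.17, 10.7 and 12.6 CPM in Ctrl and at 7.65, 5, 7.26 and 5.42 CPM in SA, in library order. The difference in log2 units was -1.18 ± 0.40 (SE; adjusted p = 0.579 with edgeR), and -0.59 without Ctrl 1. Col6a3 was at 41.1, 10.8, 28.4 and 31.0 CPM in Ctrl and at 18.6, 15.2, 19.6 and 10.5 CPM in SA, a log2 difference of -0.80 ± 0.33 (SE) with an edgeR adjusted p of 0.722. In both genes Ctrl 2 lay within the SA range and the other Ctrl libraries above it. Col6a6, a chain related to Col6a3, was scarce, at 0.887, 0.276, 0.664 and 0.790 CPM in Ctrl and 2.21, 0.563, 2.01 and 1.27 CPM in SA. Here the log2 difference was 1.19 ± 0.49 (SE) with an edgeR adjusted p of 0.731, and SA 2 lay among the Ctrl libraries.

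Among fibril-associated collagens, Col14a1 encodes a chain that binds the surface of type I fibrils. It was at 130.5, 81.8, 107.1 and 115.7 CPM in Ctrl 1 to 4 and at 69.1, 77.0, 76.3 and 59.9 CPM in SA 1 to 4, and every SA library was below every Ctrl library. The log2 difference was -0.62 ± 0.16 (SE), with adjusted p of 0.367 from edgeR and 0.0572 from DESeq2. Leaving out any 1 library kept it between -0.74 and -0.53. Per kilobase it came after Col18a1 and Col3a1 among the 27 genes, at 13.9 CPM per kb. Col12a1 and Col16a1, of the same family, had log2 fold changes of -0.23 and -0.80, and Col20a1 had 0.41.

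The multiplexins were the most and the 11th most abundant collagen genes per kilobase. Col18a1, whose product releases endostatin from its carboxyl end and which hepatocytes are known to express, was at 351.9, 532.3, 450.3 and 219.5 CPM in Ctrl 1 to 4 and at 599.2, 463.4, 460.9 and 470.6 CPM in SA 1 to 4. It reached 79.3 CPM per kb over all libraries, next to 15.1 for Col3a1. Ctrl 4 and Ctrl 1, with the most type I transcripts, had the least Col18a1. The estimate was 0.36 ± 0.23 in log2 units (SE; adjusted p = 0.955 with edgeR), 0.16 without Ctrl 4 and 0.55 without Ctrl 2.

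Col15a1 was at 12.8, 8, 14.06 and 12.8 CPM in Ctrl 1 to 4 and at 32.8, 17.2, 26.7 and 16.99 CPM in SA 1 to 4. All 4 SA libraries were above all 4 Ctrl libraries, and SA 1 and SA 3 were the highest. The log2 difference was 0.97 ± 0.25 (SE), with adjusted p of 0.367 from edgeR and 0.038 from DESeq2, and lay between 0.77 and 1.09 when any 1 library was left out. DESeq2 no longer called it without Ctrl 1 or Ctrl 2 (adjusted p = 0.111 and 0.0969), or without SA 1 or SA 3 (adjusted p = 0.183 and 0.241).

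**Figure D4:**
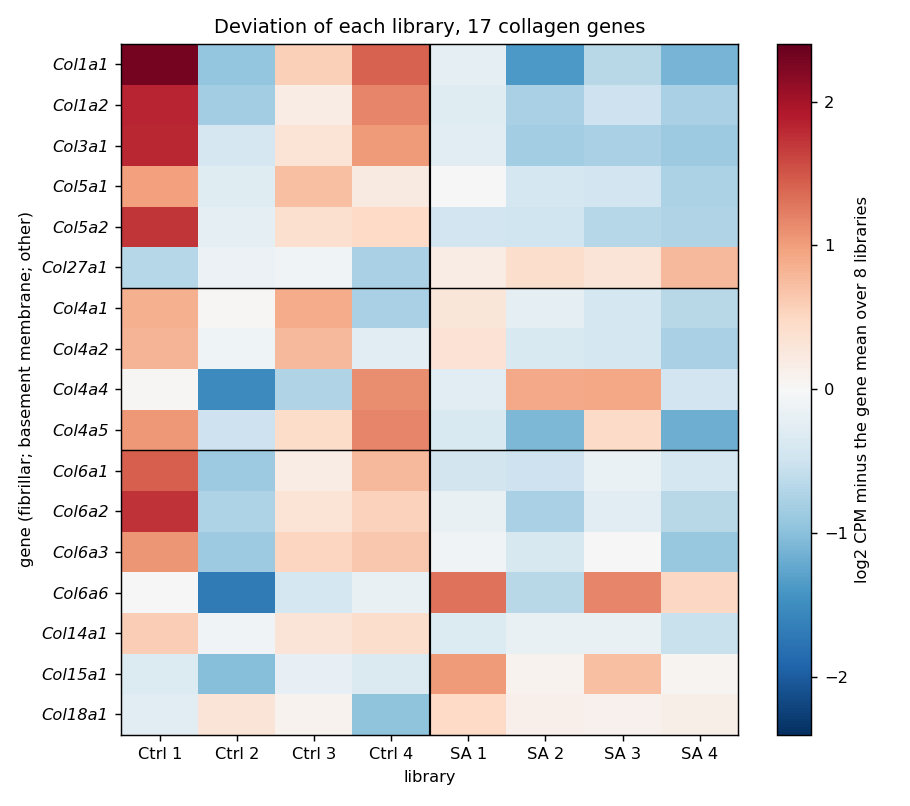
Deviation of log2 CPM from the mean of each gene over the 8 libraries (colour), for 17 collagen genes in rows ordered by class and the libraries in columns. Col1a1, Col1a2, Col3a1, Col5a1, Col5a2 and Col6a1 to Col6a3 are highest in Ctrl 1 (139.8 CPM for Col1a1) and lower in Ctrl 2 (14.8 CPM), while Col15a1 and Col27a1 are higher throughout the SA columns.

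The Ctrl libraries were spread widely, and the same library was often at the top. Ctrl 1 was the highest of the 8 libraries for 12 of the 24 tested genes, 50% of them beside 15% of all tested genes. Of the 12 genes with a negative fold change at an unadjusted p under 0.05, Ctrl 1 was above every SA library in 12, Ctrl 3 in 11, Ctrl 4 in 10 and Ctrl 2 in 3. These genes were picked for lower SA levels in the same libraries, so Ctrl values above SA follow in part from that choice. The 3 in which Ctrl 2 was above SA were Col5a2, Col14a1 and Col16a1.

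The 10 genes not given library by library had mean levels of 0.457 CPM (Col24a1) to 36.6 CPM (Col5a3). The 7 of them that were tested had log2 fold changes between -0.80 (Col16a1) and 0.41 (Col20a1). Col13a1, which encodes a transmembrane chain, had 0.06, its relative Col23a1 had -0.51, and Col8a1, of the short-chain network type of vessel walls, had -0.74. Col11a2, Col24a1 and Col25a1 had too few counts for the test. Without a filter edgeR gave them -0.14, 0.51 and 0.02.

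Of the 17 symbols under the count rule, 6 were listed at 0 in every library: Col2a1, Col9a1, Col10a1 and Col11a1 of cartilage, Col6a4 and Col26a1. None of these 6 is in the deposited FPKM table. A 0 in the count table does not always mean a silent gene: of 14229 genes at 0 in all libraries, 495 have FPKM values there, with a median over genes of 9.83 FPKM. The other 11 totalled between 4 and 44 counts over all 8 libraries. Among them Col28a1 had 16 counts in Ctrl and 2 in SA, and Col4a3, the partner of Col4a4, had 12 and 16.

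Collagen chains need a set of helper proteins, and the lists below are given beside shares over all genes. Of all tested genes, 51.3% had a negative fold change, and edgeR gave 3.29% lower and 2.91% higher at an unadjusted p under 0.05. DESeq2 called 0.267% of genes lower and 0.158% higher at an adjusted p under 0.05. For 1.46% of genes every SA library lay below every Ctrl library. Of 19 listed genes of chain maturation in the endoplasmic reticulum, 17 were tested and 14 had a negative fold change, with a median of -0.13. With edgeR none passed after adjustment and 2 were lower at an unadjusted p under 0.05, and DESeq2 called 1 lower. That gene was Serpinh1, the collagen chaperone HSP47, at 54.0, 22.6, 38.9 and 31.5 CPM in Ctrl 1 to 4 and at 18.6, 17.3, 16.9 and 15.5 CPM in SA 1 to 4. Its groups did not overlap, and the log2 difference was -1.11 ± 0.23 (SE), with adjusted p of 0.227 from edgeR and 0.00278 from DESeq2. DESeq2 kept this call after each of 8 omissions of 1 library (adjusted p of 0.0306 at most). Plod2, a lysyl hydroxylase, had -1.04 and Mia3, an export receptor for procollagen, had 0.32.

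Of 13 listed genes for propeptide cleavage and cross-linking, 11 were tested, 7 with a negative and 4 with a positive fold change (median -0.34). DESeq2 called 2 lower. With edgeR none passed after adjustment, and at an unadjusted p under 0.05 there were 4 lower and 1 higher, beside 3.29% and 2.91% of all genes. Adamts2, which removes the amino-terminal propeptide of fibrillar procollagens, was at 21.6, 8.48, 13.6 and 20.1 CPM in Ctrl 1 to 4 and at 8.05, 7.32, 8.30 and 6.29 CPM in SA 1 to 4 (log2 fold change -1.09; DESeq2, adjusted p = 0.0187). Lox, the cross-linking lysyl oxidase, had -3.42 at low levels in Ctrl (1.61 ± 1.01 CPM) and very low levels in SA (0.158 ± 0.167 CPM, SD, n = 4). It reached 10 counts in 4 Ctrl and 0 SA libraries, so it passed the edgeR filter through Ctrl alone and its values carry little weight. The related Loxl2 had -1.30. Adamts2 did not overlap between the groups. The counts of lower genes above include Lox, and its calls carry as little weight as its values. DESeq2 called Lox (adjusted p = 0.00278) except without Ctrl 1 (adjusted p = 0.123). With edgeR it passed only without SA 1 (adjusted p = 0.04996). For Adamts2 DESeq2 made no call without Ctrl 1 or Ctrl 4 (adjusted p = 0.242 and 0.0636), nor without any of SA 2 to SA 4 (adjusted p of 0.0769 to 0.142).

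Of 9 listed collagenases and inhibitors, 6 were tested and all 6 had a negative fold change (median -0.75). With edgeR none passed after adjustment and 3 were lower at an unadjusted p under 0.05, beside 3.29% of all genes. DESeq2 called the collagenase Mmp13 lower (-1.76, adjusted p = 0.0418), a call kept only without Ctrl 2 or Ctrl 4 among the omissions and furthest from the threshold without Ctrl 1 (adjusted p = 0.65). The gelatinase Mmp2 and the protease Ctsk had -1.1 and -0.95. The inhibitors Timp1 and Timp3 were listed at 0 in all 8 libraries of the count table, but Timp3 is at 8 to 16.8 FPKM in the deposited FPKM table. Timp1 is not in that table, so its 0 shows no lack of expression. All 5 tested of 7 fibril-associated proteoglycans had negative values (median -0.41), with Dcn at -0.67, Lum at -1.29 and Bgn at -0.41, and Ogn and Aspn were listed at 0, a value that cannot be checked because the FPKM table lacks both. Of 10 collagen receptors, 7 were tested and 6 were negative (median -0.18), with Ddr2 at -0.43, Ddr1 at -0.59 and Lair1, an inhibitory receptor of immune cells, at 0.48. No proteoglycan or receptor gene passed after adjustment with edgeR or DESeq2, and at an unadjusted p under 0.05 edgeR gave 2 proteoglycan genes lower and 1 receptor gene higher.

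Markers of the cells that make or surround collagen were set beside these values. Of all tested genes, 51.3% had a negative fold change. The 10 stellate cell markers summed to 371 to 438 CPM in Ctrl and 345 to 387 CPM in SA. Of them 7 of 8 tested had a negative fold change (Pdgfrb -0.75, Des -0.46, Vipr1 0.40), and Lrat was listed at 0 in the count table throughout, against 6.06 to 11.4 FPKM in the deposited FPKM table, so the summed stellate level leaves it out. The 6 myofibroblast markers summed to 15.9 to 33.6 CPM in Ctrl and 12.4 to 21.3 CPM in SA, all 3 tested being negative (Acta2 -1.57, Myl9 -0.98, Tpm2 -0.42). The 8 portal fibroblast markers summed to 30.1, 13.1, 15.4 and 16.7 CPM in Ctrl 1 to 4 and to 9.20 to 13.4 CPM in SA. Of these markers 4 of 5 tested were negative (Fbln2 -1.14, Eln -0.79, Entpd2 -0.55). Over the Ctrl libraries the portal fibroblast sum had the order of Col1a1. The stellate sum (438, 394, 435 and 371 CPM in Ctrl 1 to 4) and the myofibroblast sum (33.6, 26.0, 22.2 and 15.9 CPM) had other orders. Acta2, Fbln2 and Entpd2 were lower in every SA library than in every Ctrl library, as were 1.46% of all genes.

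The 6 bile duct markers summed to 133, 34.8, 57.1 and 104.5 CPM in Ctrl 1 to 4 and to 37.4 to 66.1 CPM in SA. The Ctrl sums had the order of Col1a1 and Col6a1, but they were mostly Spp1, at 117.77, 27.99, 44.47 and 92.97 CPM. Epcam and Krt19 did not have this order: among the Ctrl libraries, Ctrl 4 was highest for Epcam and lowest for Krt19. Of the bile duct markers, 4 of 5 tested were negative (Epcam -1.06, Spp1 -0.89, Krt19 -1.26). The 8 endothelial markers summed to 286 to 319 CPM in Ctrl and 210 to 321 CPM in SA, 5 of 7 tested being negative (Lyve1 -0.71, Oit3 -0.18, Stab2 0.35). The 4 mesothelial markers summed to 7.78, 0, 2.47 and 11.1 CPM in Ctrl 1 to 4 and to 3 to 6.37 CPM in SA. Within Ctrl the sum, like Col1a1, was higher in Ctrl 1 and Ctrl 4 than in Ctrl 2 and Ctrl 3. Ctrl 3 had a lower sum than every SA library and more Col1a1 than any of them. These sums are low, and their relation to collagen levels was not tested. Of 3 mesothelial markers with a fold change, 1 was negative (Wt1 -1.45, Msln 0.16, Upk3b 0.04).

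The 4 adipose markers summed to 45.9 to 119.3 CPM in Ctrl and 10.7 to 46.1 CPM in SA. Nearly all of this was Cfd (-1.46), the single one tested, and Adipoq, Plin1 and Retn added almost nothing. Skeletal muscle markers stayed at or below 0.207 CPM in sum, with Ckm and Myh4 listed at 0, and pancreas markers at 7.59 to 19.03 CPM through Cela1 (-0.19), with Cpa1 and Pnlip listed at 0. Of the 39 tested markers none passed after adjustment with edgeR or DESeq2, and at an unadjusted p under 0.05 edgeR gave 10 lower and 1 higher, beside 3.29% and 2.91% of all genes. The part of these cell types in the collagen values was not tested.

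The deposited FPKM table, which scales for length and comes from the authors, holds 6 of the 27 genes. Its group means were 16.1 ± 13.4 and 3.91 ± 1.2 FPKM for Col1a1 and 33.6 ± 22.4 and 11.2 ± 2.04 FPKM for Col3a1 in Ctrl and SA (SD, n = 4). Both were highest in Ctrl 1 there too, at 34.7 and 64.7 FPKM. The signs for Col1a2, Col4a1, Col14a1 and Col18a1 were those of the counts, and with limma on log2(FPKM + 1) no collagen gene passed (adjusted p = 0.999 for each). Library by library the tables agree poorly: across 7940 genes, how far a library lay from each gene mean correlated between the tables at only 0.262 to 0.458 (Pearson, genes not being independent). Col14a1 had its lowest Ctrl value, 5.25 FPKM, in Ctrl 1, the library with its highest CPM. Col18a1 was at 22 FPKM in SA 1, its lowest SA value, though SA 1 had its highest CPM. Col1a2 was at 0.953 FPKM in SA 4, against 4.55 to 6.07 FPKM in the other SA libraries.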

How the data were processed

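Liver RNA of 8 samples was sequenced with a NEBNext Ultra kit, per the labels' protocols. The authors deposited raw read counts per gene, without normalization, and FPKM values. FastQC 0.19.7, HISAT2, StringTie 2.2.1 and the builds GRCm39 and mm10 are named in the submitters' processing notes. No source used here names the counting program. Groups follow the sample titles, and columns were matched through the sample descriptions. Separate animals are not stated, so p-values reflect only the variation among these samples, which may be technical.

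Counts were fitted over all genes with edgeR 4.0.16 (R 4.3.3; TMM, filterByExpr, quasi-likelihood F test, Benjamini-Hochberg over 12358 genes), a fit tested on simulated data. CPM divides by the TMM-scaled counts of the tested genes. Standard errors come from the fold change and F statistic. Transcript length is that of the longest coding transcript in GENCODE M21. Alternatives were DESeq2 1.42.0, limma-voom (limma 3.58.1), other factors and filters, FPKM, a replicate block and omission of each library.

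The collagen genes, the 15 other lists and the rules were chosen with earlier results of these data known. Named by library are genes called by edgeR or DESeq2, the 6 smallest edgeR p of each class and the 6 highest means. From the other lists the 3 smallest p and any called gene are named.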

Additional observations from a re-analysis of the deposited data

Results flagged for a closer look

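Of 44 sets of 4 libraries examined, 4 held a library farther from the others than Dixon's criterion for a group of 4 allows, which chance gives in about 1 of 20 groups. In SA 1, Col3a1 was at 55.3 CPM against 36.5 to 38.9 in the other SA libraries, and Col18a1 was at 599.2 CPM against 460.9 to 470.6. In Ctrl 4, the genes outside the fibrillar and basement membrane classes summed to 435.3 CPM against 636.3 to 663.1 in the other Ctrl libraries. The total count of SA 4 was 28184001 against 14114145 to 15922829 in the other SA libraries.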

How the results depend on the processing

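All 17 collagen genes given by library kept the sign of their fold change under every alternative that gave a value, and edgeR passed none of them under any. Over all genes, 2 passed with edgeR, against 62 with DESeq2, 8 with no filter, and 0 to 19 when 1 library was left out (0 without Ctrl 4, 19 without SA 1). DESeq2 called 3 collagen genes. With DESeq2 and 1 library left out, a choice made after seeing the data, it called 0 to 10. The labels do not say that equal replicate numbers pair samples. Correlations of deviations were -0.023, -0.0198, 0.219 and -0.218 for equal numbers and -0.249 to 0.249 for unequal ones. These values cannot exclude a pairing. With the replicate number as a block 6 genes passed and no collagen gene did, with Col1a1 at -1.71.

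The fibrillar log2 ratio was -1.75 from FPKM, a sum over Col1a1, Col1a2 and Col3a1 only. The FPKM table lacks the other fibrillar genes, among them Col27a1 and Col5a3 with positive fold changes, so this ratio is not that of the whole class. By CPM over all 9 fibrillar genes the ratio was -1.12 to -0.50 with 1 library left out. The basement membrane ratio was 0.22 with the multiplexins added and -0.84 to -0.43 with 1 library left out. The ratio of the other class was -0.65 without the multiplexins, -0.17 as a geometric mean and -0.010 to 0.17 with 1 library left out. Signs turned for Ass1 (0.78 with FPKM + 1, with or without the filter, and with FPKM + 0.1), Serpina1a (-2.81, -2.81 and -2.86 on those scales, -0.069 to 0.13 with 1 library left out), Lair1 (-0.098, -0.098 and -0.21), Msln (-0.25 to 0.70), Upk3b (-0.37 to 0.87) and Cela1 (-0.49 to 0.13), the last 3 with 1 library left out. The cause was not tested. Genes under 2 CPM, such as Col4a4 and Col6a6, are limited by depth.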
